A study of Mus musculus with 6 samples.

Results

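miR-375, miR-7a, miR-7b and their star arms were followed through the small RNA of 6 whole mouse brains. The 7 entries, of 1055 mature miRNAs in the count tables, were chosen by name: miR-375, miR-375*, miR-7a, miR-7b, miR-7a-1*, miR-7a-2* and miR-7b*. miR-375 was itself selected on its high abundance in a single library, wild-type replicate 1, so every value that sets miR-375 in that library against the others is a description and was not tested. The brains came from female siblings of the 129SV strain aged 5.5 months, 3 wild type and 3 Adar2-/-. Adar2-/- mice lack the editing enzyme ADAR2 in the germ line and therefore in every cell, and both groups were homozygous for the pre-edited Gria2 R/R allele, which the controls thus carry too. Small RNA of 19 to 25 nucleotides was sequenced with a separate library and lane for each brain. Whether the dissected brains still held the pituitary is not given in the sources used here, and Adar2 mRNA was not analysed here, so the genotype labels were not checked. A brain and its lane cannot be told apart. The column names of both replicate 1 libraries, which include the one with high miR-375, carry other numbers than those of replicates 2 and 3 and lack the further number that those have, and what these numbers stand for is not given in the sources used here.

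miR-375 is best known from endocrine cells. It is abundant in pancreatic islets, where it restrains insulin secretion, and in the pituitary, and it is also made in some epithelia. miR-7 is an old, strongly conserved miRNA that is enriched in the pituitary, in neurosecretory neurons of the hypothalamus and in islets. In the mammalian brain it is bound by the circular RNA Cdr1as, which carries many miR-7 sites. Each miRNA hairpin gives a guide arm, which is loaded into Argonaute and finds targets through its seed, bases 2 to 8, and a star arm, which is usually degraded. The mouse has separate hairpins for miR-7a, Mir7-1 and Mir7-2, which give the same guide arm but different star arms, and another, Mir7b, for miR-7b.

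The arms of the miR-7 hairpins are shown because their likeness decides which reads can be told apart. They are RefSeq sequences from a table made on GRCm38.p6, which held 6 of the 7 entries, printed 5′ to 3′ with bases 2 to 8 in capitals.
miR-7a: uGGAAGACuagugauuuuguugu
miR-7b: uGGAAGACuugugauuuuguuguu
miR-7a-1*: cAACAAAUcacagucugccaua
miR-7a-2*: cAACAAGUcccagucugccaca
miR-7b*: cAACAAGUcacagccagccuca
Counted from 1 at the 5′ end, miR-7a and miR-7b differed at 1 of the 23 aligned bases, A10U, which lies outside the seed. Their seed GGAAGAC was shared by these 2 alone among 1679 mature mouse miRNA names of the table. The star arms of the miR-7a hairpins differed at 3 of 22 bases, A7G, A10C and U21C, of which the first is in the seed. Reads of Mir7-1 and Mir7-2 therefore cannot be separated by their guide arm, whereas their star arms can be. A read of miR-7a and one of miR-7b are separated by a single internal base and by their 3′ ends, so their split is less certain than their sum.

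The hairpins lie on different chromosomes. On NCBIM37, Mir375 is at chr1:74947226-74947300 on the minus strand, between Cryba2 and Ccdc108 and inside neither. Mir7-1 is at chr13:58494140-58494247 on the minus strand, in an intron of Hnrnpk, which is transcribed in the same direction and encodes an abundant RNA-binding protein. Mir7-2 is at chr7:86033163-86033259 on the plus strand, intergenic between Det1 and Aen. Mir7b is at chr17:56382411-56382521 on the plus strand, intergenic between Dpp9 and Fem1a. The mature miR-7a sequence was found at chr13:58494202-58494224 and at chr7:86033181-86033203, and that of miR-7b at chr17:56382440-56382463.

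Abundance is given in RPM, the reads of a miRNA for every 1000000 reads that mapped to any miRNA in that library. Libraries held from 12449633 to 23935544 such reads, and wild-type replicate 1 was the shallowest. Of the 7 entries, 5 had at least 100 reads in every library, and miR-375* and miR-7b* did not. In RNA from a whole brain, fewer cells of a type and less RNA per cell cannot be told apart.

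miR-375 was abundant in 1 brain and scarce in 5. The wild-type brains, in the order of their replicate numbers, had 41015, 2565 and 1006 reads, and the Adar2-/- brains had 1337, 1767 and 1327. These are 3294, 113 and 42.9 RPM in wild type and 71.7, 74.9 and 55.4 RPM in Adar2-/-. Wild-type replicate 1 stood alone, and the other 2 wild-type brains lay on either side of all 3 Adar2-/- brains. In that library miR-375 took 0.329% of all miRNA reads and ranked 37th by abundance, whereas its share was between 0.00429% and 0.0113% elsewhere and its rank between 185 and 269. The 95% Wilson interval of the high value, 3263 to 3326 RPM, covers counting error only.

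Set against the median of the other 5 libraries, miR-375 was 45.9-fold higher in wild-type replicate 1, and it was 29.3-fold above the highest of them. Both ratios were the largest among the 399 miRNAs that reached 100 reads in all 6 libraries. After miR-375, the largest ratios to the highest other library were 3.90 for miR-30d*, 2.82 for miR-9*, 2.65 for miR-30a* and 2.61 for miR-666-3p. miR-7a-2* was the next, with 2.39. At least 2-fold above the highest of the other libraries were 9 of 399 miRNAs, 2.26%.

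The wild-type mean of miR-375, 1150 ± 1858 RPM (SD, n = 3), therefore describes no brain, and the Adar2-/- mean was 67.4 ± 10.4 RPM (SD, n = 3). The log2 difference of Adar2-/- over wild type was -4.09 with all libraries and -0.21 without wild-type replicate 1, and both are descriptions because the high library chose the miRNA. miR-375* had 0 reads in every library, also where its guide arm had 41015. A count of 0 allows up to 3 reads, or 0.125 to 0.241 RPM depending on the library.

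**Figure D1:**
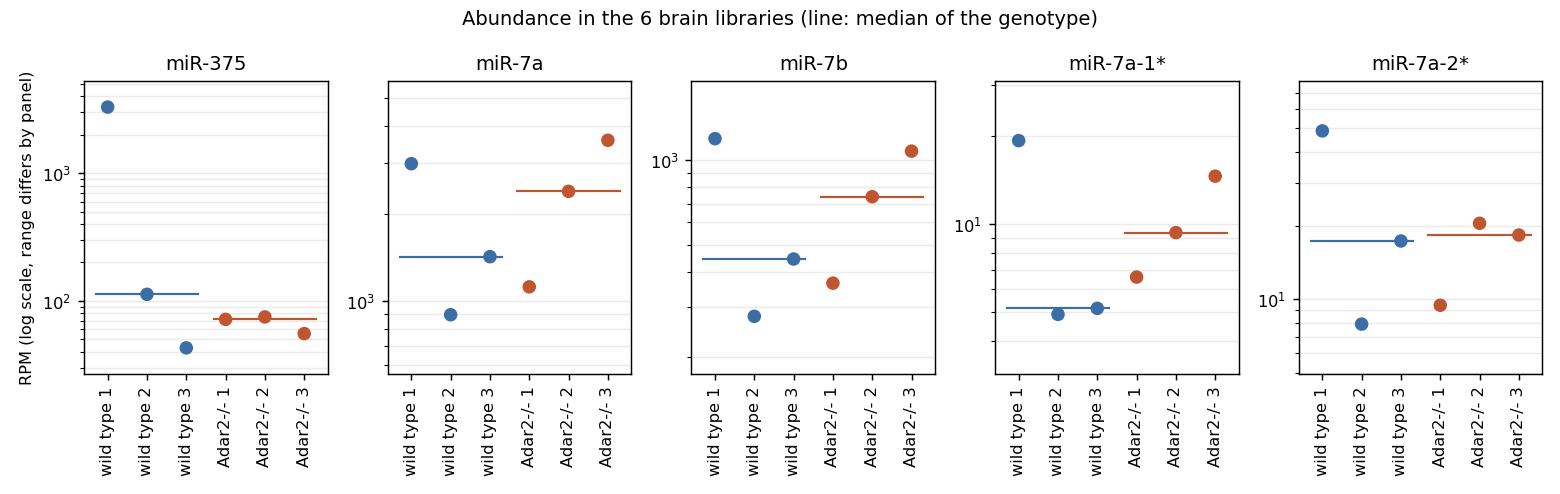
RPM (log axis, with a range of its own in each panel) of the 5 entries that reached 100 reads in all 6 libraries, for each of the 3 wild-type brains (blue) and 3 Adar2-/- brains (orange), with a line at the median of each genotype. miR-375 stands at 3294 RPM in wild-type replicate 1, while the other libraries lie at 42.9 to 113 RPM, whereas the miR-7 entries are high in wild-type replicate 1 and in Adar2-/- replicates 2 and 3.

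miR-7a was plentiful in every brain and varied less. The wild-type brains, in the same order, had 37049, 20446 and 33395 reads, and the Adar2-/- brains had 20882, 56370 and 85806. The abundance was 2976, 898 and 1423 RPM in wild type and 1120, 2390 and 3585 RPM in Adar2-/-. The highest library was thus Adar2-/- replicate 3 and not the library with high miR-375. The highest and lowest brains differed 3.99-fold, and miR-7a ranked between 40th and 76th in all 6 libraries.

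miR-7b followed miR-7a at a lower level, with 1189, 279 and 445 RPM in the wild-type brains and 366, 740 and 1074 RPM in the Adar2-/- brains. Here wild-type replicate 1 was the highest, 1.11-fold above Adar2-/- replicate 3. In 5 libraries miR-7b made up 23.1% to 24.6% of the miR-7a and miR-7b reads together, with 95% Wilson intervals that lie between 22.8% and 25.1%. In wild-type replicate 1 it made up 28.5% (28.2% to 28.9%), apart from the rest by more than counting error.

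The star arms were far rarer. miR-7a-1*, from the Hnrnpk intron, was at 19.4, 4.92 and 5.16 RPM in the wild-type brains and at 6.60, 9.37 and 14.6 RPM in the Adar2-/- brains. miR-7a-2*, from the intergenic hairpin, was at 48.8, 7.90 and 17.3 RPM in wild type and at 9.44, 20.4 and 18.3 RPM in Adar2-/-. Wild-type replicate 1 was highest for both, and its lead was larger for miR-7a-2*. miR-7b* had 1, 1 and 9 reads in wild type and 0, 9 and 18 in Adar2-/-, 38 in all beside 81599 reads of miR-7b, too few for any comparison.

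The library with high miR-375 was thus also high in miR-7, but by much less and not alone. Relative to the median of the other 5 libraries, wild-type replicate 1 was 2.09-fold higher for miR-7a, 2.67-fold for miR-7b, 2.93-fold for miR-7a-1* and 2.82-fold for miR-7a-2*. All 4 of these passed 2-fold, as did 43 of the 399 miRNAs, 10.8%. With trimmed mean of M-values (TMM) factors in place of read totals miR-7a was at 1.95-fold, which leaves 3 of 4 beside 6.77% of all miRNAs. The ratio over all 399 miRNAs had a median of 1.10 with read totals and 0.963 with TMM factors. Ranked by this ratio, miR-7a-1* was 9th, miR-7a-2* 13th, miR-7b 17th and miR-7a 37th of 399, behind miR-375 in the first place.

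Wild-type replicate 1 was the highest of the 6 libraries for 3 of the 4 miR-7 entries and for 108 of the 399 miRNAs, 27.1%. When the totals left out the 5 most abundant miRNAs, it was the highest for miR-7a too, by 1.05-fold. Only miR-7a-2* among the miR-7 entries exceeded the highest other library by at least 2-fold.

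Star arms in general were high in that library. Wild-type replicate 1 was the highest for 46 of 93 star arms (49.5%), with a median ratio of 1.39 to the median of the other libraries, and for 62 of the 306 other entries (20.3%), with a median ratio of 1.01. At least 2-fold above that median were 17 star arms (18.3%) and 26 other entries (8.50%). What part this and the lower depth had in the values of miR-7a-1* and miR-7a-2* was not tested.

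**Figure D2:**
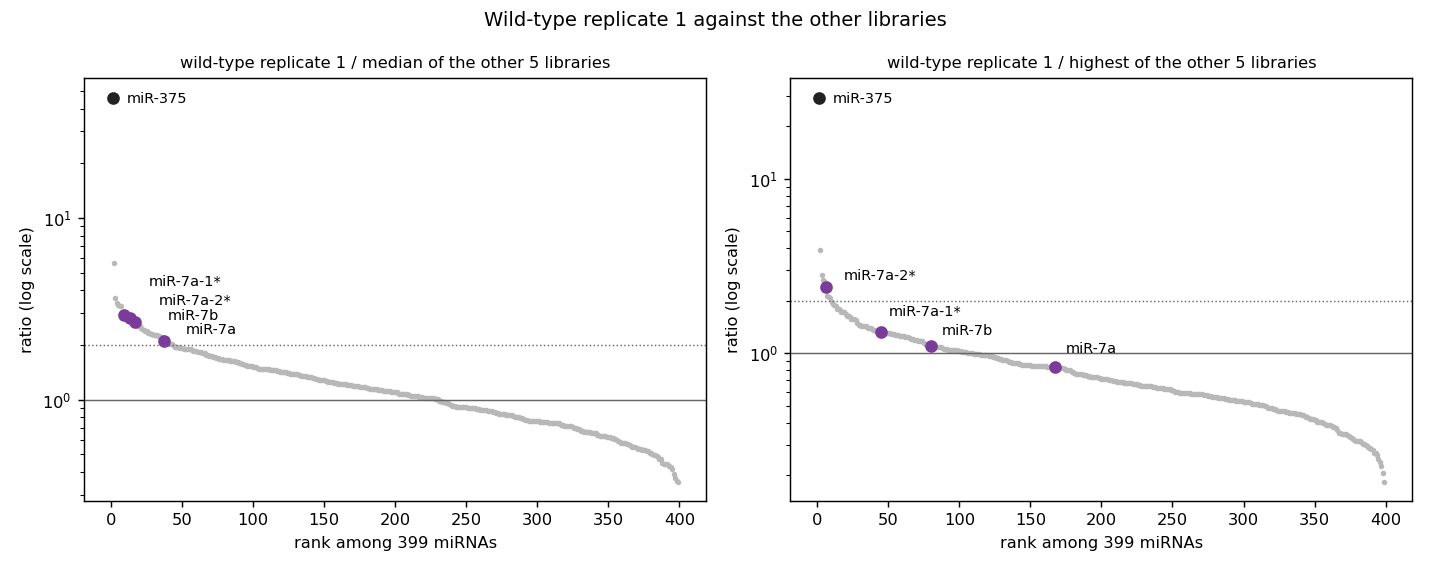
Ratio of RPM in wild-type replicate 1 to the median (left) and to the highest (right) of the other 5 libraries on a log axis, for 399 miRNAs in order of the ratio, with lines at 1 and 2. miR-375 (black) stands above all others at 45.9 and 29.3, and the 4 miR-7 entries (purple) lie between 2.09 and 2.93 on the left and between 0.830 and 2.39 on the right.

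Wild-type replicate 1 was not the only library with high miR-7. Adar2-/- replicate 3 was 2.52-fold above the median of its other 5 libraries for miR-7a, 2.41-fold for miR-7b and 2.22-fold for miR-7a-1*, but 1.06-fold for miR-7a-2*. Of the 399 miRNAs, 53 were at least 2-fold above that median in this library. At 55.4 RPM its miR-375 was 0.740-fold that median. Adar2-/- replicate 2 was 1.68-fold above it for miR-7a and 1.66-fold for miR-7b, with miR-375 at 1.04-fold. In these 2 libraries high miR-7 thus came with miR-375 at the level of the remaining brains.

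For all 4 miR-7 entries the 3 highest libraries were wild-type replicate 1 and Adar2-/- replicates 2 and 3. This split, chosen after the values were seen, held for 104 of 399 miRNAs, 26.1%. Adar2-/- replicate 3 was the highest library for 126 of the 399 and wild-type replicate 1 for 108, so these libraries lead often.

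The miRNAs whose profile was most like that of miR-7a over the 6 libraries, by Pearson's r of log2(RPM + 1), were miR-23b (0.999), miR-376c (0.991), miR-337-5p (0.989), miR-23a (0.989) and miR-34c (0.988). For miR-7b they were miR-337-5p (0.990), miR-7a (0.985), miR-130a (0.985), miR-130b (0.984) and miR-23a (0.983). An r above 0.9 was common: 41 of 398 miRNAs (10.3%) passed it with miR-7a and 36 (9.05%) with miR-7b. All points share the same 6 libraries and their totals, so these values describe likeness over 6 brains and nothing more.

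Adar2-/- and wild-type brains overlapped for all 5 entries that reached 100 reads in all 6 libraries, whereas the genotypes were fully apart for 23 of 399 miRNAs, 5.76%. The mean of miR-7a was 1765 ± 1081 RPM in wild type and 2365 ± 1233 RPM in Adar2-/- (SD, n = 3 each), and that of miR-7b was 638 ± 484 and 727 ± 354 RPM. The star arm miR-7a-1* had means of 9.81 ± 8.27 and 10.2 ± 4.08 RPM, and miR-7a-2* of 24.7 ± 21.4 and 16.1 ± 5.83 RPM. Each difference of the means was smaller than the SD of the wild-type brains.

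By edgeR's quasi-likelihood test with Benjamini-Hochberg adjustment over 399 miRNAs, 0 of the 4 miR-7 entries passed the threshold of 0.05, and 0 had an unadjusted p under it. Over all miRNAs 0 of 399 (0%) passed, with 13 at an unadjusted p under 0.05. miR-375 was in this fit and is among the 13, but its p is not used because the high library chose it. DESeq2 called 1, which was not a miR-7 entry. The log2 fold change of Adar2-/- over wild type was 0.42 for miR-7a (SE 0.523, 95% interval -0.74 to 1.59, edgeR adjusted p = 0.988) and 0.19 for miR-7b (SE 0.561, -1.06 to 1.44, edgeR adjusted p = 0.989). It was 0.07 for miR-7a-1* (SE 0.553, -1.16 to 1.30) and -0.61 for miR-7a-2* (SE 0.595, -1.94 to 0.71). The intervals leave room for changes of 2-fold for each entry in at least 1 direction.

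The fold changes depended on single libraries, wild-type replicate 1 and Adar2-/- replicate 3 in particular. Within replicate number 1 the ratio of Adar2-/- to wild type was 0.376 for miR-7a and 0.308 for miR-7b, within number 2 it was 2.66 and 2.65, and within number 3 it was 2.52 and 2.41. Without wild-type replicate 1 the log2 fold change of miR-7a was 1.03 (SE 0.511, edgeR adjusted p = 0.669) and that of miR-7b 1.00, while miR-7a-2* turned from -0.61 to 0.35. Without Adar2-/- replicate 3 the value of miR-7a was -0.0085, that of miR-7b -0.21 and that of miR-7a-1* -0.28. Leaving out wild-type replicate 2 or 3 also turned miR-7b, to -0.17 and -0.01, and miR-7a-1*, to -0.25 and -0.24. Without both libraries of replicate 1, which leaves 2 brains a genotype, miR-7a was at 1.36 (SE 0.359), miR-7b at 1.32 and miR-7a-1* at 1.25, each with an edgeR adjusted p of 0.0612, and miR-7a-2* was at 0.62 (adjusted p = 0.397). That fit called 18 of 399 miRNAs, 4.51%, and 0 of the 4 miR-7 entries.

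The call turned on which miRNAs were tested beside them. When the minimum of 100 reads was asked of the remaining 4 libraries only, 437 miRNAs were tested and 37 called, 8.47%, and 3 of the 4 miR-7 entries were among them. The edgeR adjusted p was then 0.0314 for miR-7a, 0.0343 for miR-7b, 0.0437 for miR-7a-1* and 0.371 for miR-7a-2*, with the same log2 fold changes. This setting was chosen after the data were seen.

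Ratios within a library do not depend on its total. They were put to an exact permutation test, two-sided, which cannot go below p = 0.1 with 3 brains against 3. The log2 ratio of miR-7b to miR-7a was -1.56 ± 0.21 in wild type and -1.68 ± 0.06 in Adar2-/- (SD, n = 3 each, exact p = 0.5, adjusted over 4 ratios 0.667). That of miR-7a-1* to miR-7a was -7.63 ± 0.43 and -7.78 ± 0.32 (exact p = 0.8, adjusted 0.8). Both differences were smaller than the SD of the wild-type brains, but that of miR-7b to miR-7a was larger than the Adar2-/- SD of 0.06. Without wild-type replicate 1 the difference in the ratio of miR-7b to miR-7a went from -0.12 to -0.00098.

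The star arm of Mir7-2 was the exception in order, though not in the test. miR-7a-2* had 16.4, 8.80 and 12.2 reads per 1000 miR-7a reads in the wild-type brains and 8.43, 8.55 and 5.10 in the Adar2-/- brains, so the genotypes did not overlap, by a margin of 8.80 to 8.55. Star-to-guide ratios of other miRNAs were not computed, so no share over all such ratios stands beside this. Star arms in general were high in wild-type replicate 1, with a median ratio of 1.39 to the other libraries against 1.01 for other entries. The part of that in the 16.4 was not tested. The log2 ratio of miR-7a-2* to miR-7a was -6.37 ± 0.45 in wild type and -7.12 ± 0.42 in Adar2-/-, a difference of -0.75 (SD, n = 3 each, exact p = 0.1, the smallest possible, adjusted 0.4). Without wild-type replicate 1 that difference was -0.53. miR-7a-1* had 6.50, 5.48 and 3.62 reads per 1000 in wild type and 5.89, 3.92 and 4.08 in Adar2-/-, with the genotypes interleaved.

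The star reads of the miR-7a hairpins were split differently from brain to brain. miR-7a-2* made up 71.6%, 61.6% and 77.0% of the star reads of both hairpins in wild type and 58.9%, 68.6% and 55.6% in Adar2-/-. The 95% Wilson intervals were 68.5% to 74.5%, 55.9% to 67.0% and 73.3% to 80.4% in wild type. In Adar2-/- they were 53.2% to 64.3%, 65.0% to 71.9% and 52.1% to 59.0%. Several overlap, whereas those of wild-type replicate 3 and Adar2-/- replicate 3 lie apart. Star arms are usually degraded, and whether the output of the hairpins differed was not tested. The log2 ratio of miR-7a-2* to miR-7a-1*, added after the data were seen, was 1.26 ± 0.54 and 0.66 ± 0.42 (SD, n = 3 each, exact p = 0.2, adjusted 0.4), and without wild-type replicate 3 the difference went from -0.60 to -0.35.

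**Figure D3:**
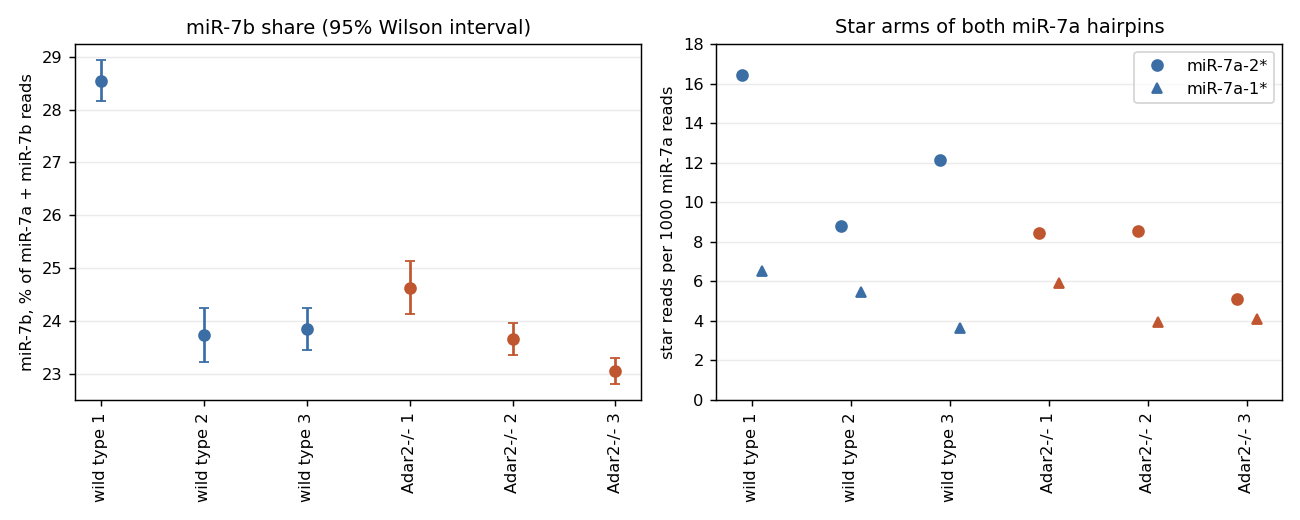
Left, miR-7b as a percentage of miR-7a and miR-7b reads in each brain with 95% Wilson intervals (axis not from 0). Right, reads of miR-7a-2* (circles) and miR-7a-1* (triangles) per 1000 miR-7a reads, wild type in blue and Adar2-/- in orange; wild-type replicate 1 is highest in both panels, at 28.5% and at 16.4 and 6.50 reads per 1000.

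miRNAs known from tissues that could come with a brain, or from its cell types, were read in the same way. Of 36 names in 11 lists, 35 matched an entry of the tables, and 0 were at least 3-fold above or below the median of the other libraries in wild-type replicate 1. Their ratios ran from 0.439 to 2.41 with a median of 1.07, beside 1.10 over the 399 miRNAs. At least 2-fold above were 4 of the 35: miR-200c (2.41), miR-144 (2.29), miR-205 (2.08) and miR-216b (2.04). Over the 399 miRNAs this held for 43, 10.8%. The lists, unlike the 399, were not held to the minimum of 100 reads in every library. Below it were miR-144 and miR-205, with 56 and 67 reads in their lowest library. The same was true of miR-122, miR-211, miR-215 and miR-216a. In no list did a majority of the miRNAs pass 2-fold.

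The miR-200 family and miR-141, which mark epithelia and are found in the pituitary, had a summed abundance of 6267 RPM in wild-type replicate 1, beside 738 to 9210 RPM in the others. The 738 RPM was that of Adar2-/- replicate 3, which was lowest for all 5 members and also for miR-182, miR-183 and miR-96. The wild-type sums ran from 4783 to 6267 RPM. Of the 5 members miR-200c was at 1140 RPM in wild-type replicate 1, against 94.2 to 967 RPM elsewhere. There miR-200a, miR-200b and miR-429 were 1.05-, 1.10- and 1.11-fold above the median of the others and miR-141 1.68-fold. The summed level of miR-216a, miR-216b and miR-217, which mark the exocrine pancreas and not its islets, was 80.0 RPM and otherwise 42.3 to 76.8 RPM. The neuronal list of miR-9, miR-124, miR-128 and miR-137 was at 166727 RPM beside 113471 to 135678 RPM. In both of these lists the sum was highest in wild-type replicate 1, by 1.04-fold and 1.23-fold over the next. A single miRNA carried each lead: miR-216b was highest in that library while miR-216a and miR-217 were highest in Adar2-/- replicate 3, and miR-9, at 151020 RPM, was highest there while miR-124, miR-128 and miR-137 were highest in Adar2-/- replicate 3.

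Most of the remaining sums lay within the range of the other libraries. Within it were the sensory and pineal list (113581 RPM beside 19159 to 186903), skin and gut epithelium (3614 beside 2067 to 4703), muscle (2340 beside 2255 to 3390), blood (697 beside 420 to 1540), vessels (62688 beside 50321 to 80298) and the liver miRNA miR-122 (4.26 beside 3.95 to 7.23). Below it was choroid plexus (838 RPM beside 894 to 1622). The oligodendrocyte miRNAs went both ways. The listed miR-338-3p was at 211 RPM beside 237 to 519, and miR-219 has no entry under that name but 1 for each arm. Looked up after the values were seen, miR-219-5p was at 73.0 RPM beside 139 to 189, whereas miR-219-3p was at 1342 RPM beside 627 to 963 and miR-338-5p at 156 RPM beside 99.9 to 117. None of the lists held a marker at 0 in wild-type replicate 1. None of these lists moved by a factor near that of miR-375. The neuronal and vessel lists could not have done so. Their lowest sums elsewhere were 113471 and 50321 RPM, and such a factor would take either past all miRNA reads of a library. How far a tissue rich in miR-375 would move a list already present in the other brains was not tested. The part of any tissue in the miR-375 or miR-7 values of wild-type replicate 1 was not tested either.

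**Figure D4:**
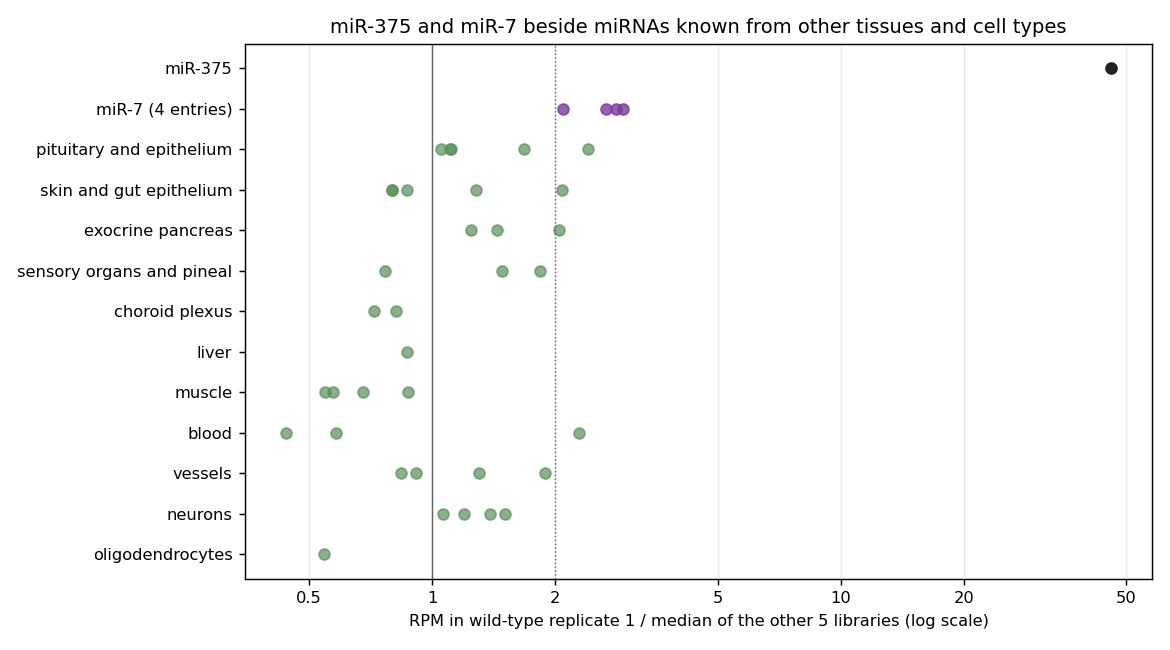
Ratio of RPM in wild-type replicate 1 to the median of the other 5 libraries (log axis, lines at 1 and 2), 1 point for each miRNA, for miR-375, the 4 miR-7 entries and the 35 miRNAs of 11 tissue and cell type lists. miR-375 lies at 45.9, the miR-7 entries at 2.09 to 2.93, and the listed miRNAs at 0.439 to 2.41.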

How the data were processed

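The authors clipped adaptors (Cutadapt), aligned reads to mature miRNAs of miRBase release 16 by NextGenMap, discarded hits to the reverse strand, weighted reads with several equally good hits and deposited whole-number read counts per miRNA without normalization. How weights became whole numbers is not given in the sources used here. Each column was given to the sample of its genotype and replicate table, and 12 blank lines were dropped. Shares carry 95% Wilson intervals, which cover counting error only, since reads are not independent molecules. The p-values set a genotype difference against the variation between libraries, in which a brain and its lane cannot be told apart.

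The quasi-likelihood test of edgeR 4.0.16 (glmQLFit, glmQLFTest, R 4.3.3) was run on the counts of the 399 miRNAs that reached 100 reads in all 6 libraries. Read totals served as library sizes, without scaling factor or block, and adjusted p-values are Benjamini-Hochberg values called at 0.05. For ratios within a library an exact permutation test, two-sided, was run in scipy 1.17.1. Wild-type replicate 1 was described, without a test, against the median and the highest of the other 5 libraries. Of these procedures only the edgeR and DESeq2 fits were tried on simulated counts, with many miRNAs changed strongly in both directions, a setting unlike these data. The permutation test and the ratios of wild-type replicate 1 were not tried in this way. Alternatives were DESeq2 1.42.0, TMM factors, totals that omit the 5 most abundant miRNAs, a minimum of 10 reads or none, the replicate number as a block, and libraries or replicate numbers left out on the same 399 miRNAs.

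Besides the chosen miRNAs, the text names those of the lists at least 2-fold above in wild-type replicate 1 (the rule was 3-fold, which none passed, and 2-fold was chosen after the values were seen), the 5 highest there against every other library, and the 5 most like miR-7a or miR-7b. Members and lists were chosen with earlier results of these data known. Hairpins and mature sequences were placed on NCBIM37 with the GENCODE annotation of that build.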

Additional observations from a re-analysis of the deposited data

How the results depend on the processing

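Number of calls: DESeq2 called 1 miRNA and the leave-out fits 0 to 18. With replicate 1 left out and the minimum of 100 reads asked of the remaining libraries, a setting added after the data were seen, 37 were called, and miR-7a (1.36), miR-7b (1.32) and miR-7a-1* (1.25) passed the threshold; these were otherwise never called. The leave-out fits gave log2 fold changes of -0.14 to 1.36 for miR-7a, -0.41 to 1.32 for miR-7b, -0.60 to 1.25 for miR-7a-1*, -1.25 to 0.62 for miR-7a-2* and -4.71 to -0.21 for miR-375, so every miR-7 entry changed sign, with the cause not tested. With totals without the 5 most abundant miRNAs miR-7a-1* was at -0.065. The ratio of miR-7a-1* to miR-7a ran from -0.39 to 0.030, turning only without wild-type replicate 1. The miR-375 ratio of wild-type replicate 1 to the others was 41.7 with TMM factors, 49.8 with totals without the 5 most abundant miRNAs, 46.5 with DESeq2 size factors and 42.4 against the other 2 wild-type brains. The same ratio was 2.31 with TMM factors and 3.84 against the other 2 wild-type brains for miR-7a-1*, and 3.38 without the 5 most abundant miRNAs and 3.88 against the other 2 wild-type brains for miR-7a-2*. What brains of one replicate number shared beyond that number and the form of their column names is not given in the sources used here. Their deviations from the genotype means correlated at 0.0010, -0.08 and -0.01, and a shared batch was not tested. With the replicate number as a block edgeR called 0 miRNAs. The log2 fold changes were then 0.51 for miR-7a, 0.41 for miR-7b, 0.34 for miR-7a-1*, -0.26 for miR-7a-2* and -1.52 for miR-375 (edgeR adjusted p 0.983 for each miR-7 entry). miR-7b*, with 0 to 18 reads, and miR-375*, with 0, were below the minimum of 100 reads in every library. The part of depth in these and the other values was not tested.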
